A study of Mus musculus with 9 samples.

Results

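The 10 genes described here encode feedback inhibitors of the RAS-ERK pathway: the dual-specificity phosphatases Dusp4, Dusp5 and Dusp6, the Sprouty proteins Spry1, Spry2 and Spry4, the Spred proteins Spred1, Spred2 and Spred3, and Il17rd, also known as Sef. They were taken by name, as negative regulators that ERK signalling is itself known to induce. The rule itself uses no measured value, but the genes were chosen with earlier results of these data known, so the counts of called genes given for them describe this list and are not independent evidence. They make up 10 of the 46078 gene identifiers counted in the RNA-seq libraries, and all 10 passed the filter on low counts in every comparison. In this pathway a growth factor receptor activates RAS, which activates the RAF, MEK and ERK kinases in turn, and active ERK switches on transcription of its own inhibitors. Messenger RNA of these genes is therefore widely read as a trace of ERK output, although each gene has other inputs. In spermatogonial stem cells, GDNF acting through Gfra1 and Ret, together with fibroblast growth factor, sustains self-renewal, while Kit marks spermatogonia that have begun to differentiate.

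The samples were 9 libraries of mRNA from EGFP-SSCs, a fluorescent mouse spermatogonial stem cell line of WT genotype that the same team had established earlier. Each of the times 0 h, 24 h and 48 h has 3 libraries described as biological replicates. The 0 h cells were in normal culture, on mitomycin C-treated mouse embryonic fibroblasts in a stem cell medium with a little serum that held EGF, basic FGF and GDNF. The 24 h and 48 h cells had been mixed in equal parts with somatic cells of busulfan-treated testes from young mice, in a medium with KSR, BMP-4/7, retinoic acid, activin A, testosterone, FSH and BPE that names none of those 3 growth factors, and EGFP-positive cells were then sorted. The comparisons ask how expression changes when the stem cells leave self-renewal culture for the differentiation co-culture. The time, the medium and the companion cells all changed together after 0 h and cannot be told apart. The labels describe the sort for 24 h and 48 h, and they do not say whether the 0 h cells were sorted in the same way. All libraries come from 1 line, and separate cultures are not described for the replicates, so p-values measure the spread between these libraries only.

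Library totals ran from 16825251 to 22201892 counts, and no pair of replicates held identical values. Replicates differed most at 0 h, the group used in both comparisons with later times. The chi-square per degree of freedom over genes, a measure of spread between 2 libraries, was 35.5 to 81.4 at 0 h. It was 7.97 to 13.4 at 24 h and 7.13 to 26 at 48 h. The germ cell markers were present throughout, with a summed level of 1700 to 3020 CPM (counts scaled to a common library size) at 0 h, 2140 to 2420 at 24 h and 2170 to 2520 at 48 h. Markers of other cells were also measured after the sort. The 10 stromal and fibroblast markers summed to 350 to 449 CPM at 0 h, 2230 to 2590 at 24 h and 3050 to 3380 at 48 h, led by Col1a1, Col1a2 and Col3a1. Not every gene of that list rose: 6 of the 10 were higher and 2 lower at 24 h and again at 48 h, and Twist1 and Thy1 were the lower ones both times. The 8 peritubular myoid markers, led by Acta2, went from between 40.3 and 48.3 CPM to between 208 and 276 and then between 348 and 416. Sertoli markers summed to 25.3 to 26.2, 69.2 to 109 and 106 to 126 CPM, with Fshr at 3 counts or fewer in every library. Of 9 Sertoli markers tested at 24 h, 7 were higher and 2, Sox9 and Rhox5, lower. Leydig markers summed to 4.58 to 6.99, 28.7 to 44.7 and 29.1 to 37.3 CPM. Sums of the other lists went down, from 64.8 to 75.1 CPM at 0 h to 23.1 to 27.6 at 24 h and 22.5 to 23.8 at 48 h for endothelial markers, and from 15.5 to 18.3 to 6.46 to 10.4 and 6.44 to 9.21 for macrophage markers. Their genes were split: of 6 endothelial markers tested at 24 h, 3 were lower and 2, Tek and Tie1, higher. Of 3 macrophage markers tested at 24 h, 1, Cd68, was lower and 1, Csf1r, higher. Cd68 alone had a mean of 15.7 CPM at 0 h. Twist1, Thy1, Sox9, Rhox5, Tek, Tie1, Cd68 and Csf1r are named here after their values were seen. Their part in the changes described next was not tested, and in such bulk samples fewer cells of a type and less RNA per cell cannot be told apart.

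All 10 inhibitors fell after 0 h: each was below its 0 h level at 24 h and again at 48 h. By the quasi-likelihood test of edgeR with Benjamini-Hochberg adjustment over all genes tested, 14.2% of the 17592 genes tested at 24 h were lower and 11.4% were higher, while 10 of the 10 inhibitors were lower and 0 were higher. At 48 h against 0 h, 18.5% of 17755 genes were lower and 13% were higher, and the inhibitors again stood at 10 lower and 0 higher. The median of their log2 fold changes was -2.18 (24 h) and -2.39 (48 h), against 0.01 and 0.02 over all genes tested. The 0 h libraries are shared by both comparisons, so they are not separate pieces of evidence. Between 24 h and 48 h, 3 of the 10 were lower and 0 higher, where 12.7% of 17499 genes were lower and 8.61% were higher. Those 3 were Dusp4, Dusp5 and Spred2, and the median of the 10 was -0.09 against 0 over all genes tested.

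**Figure D1:**
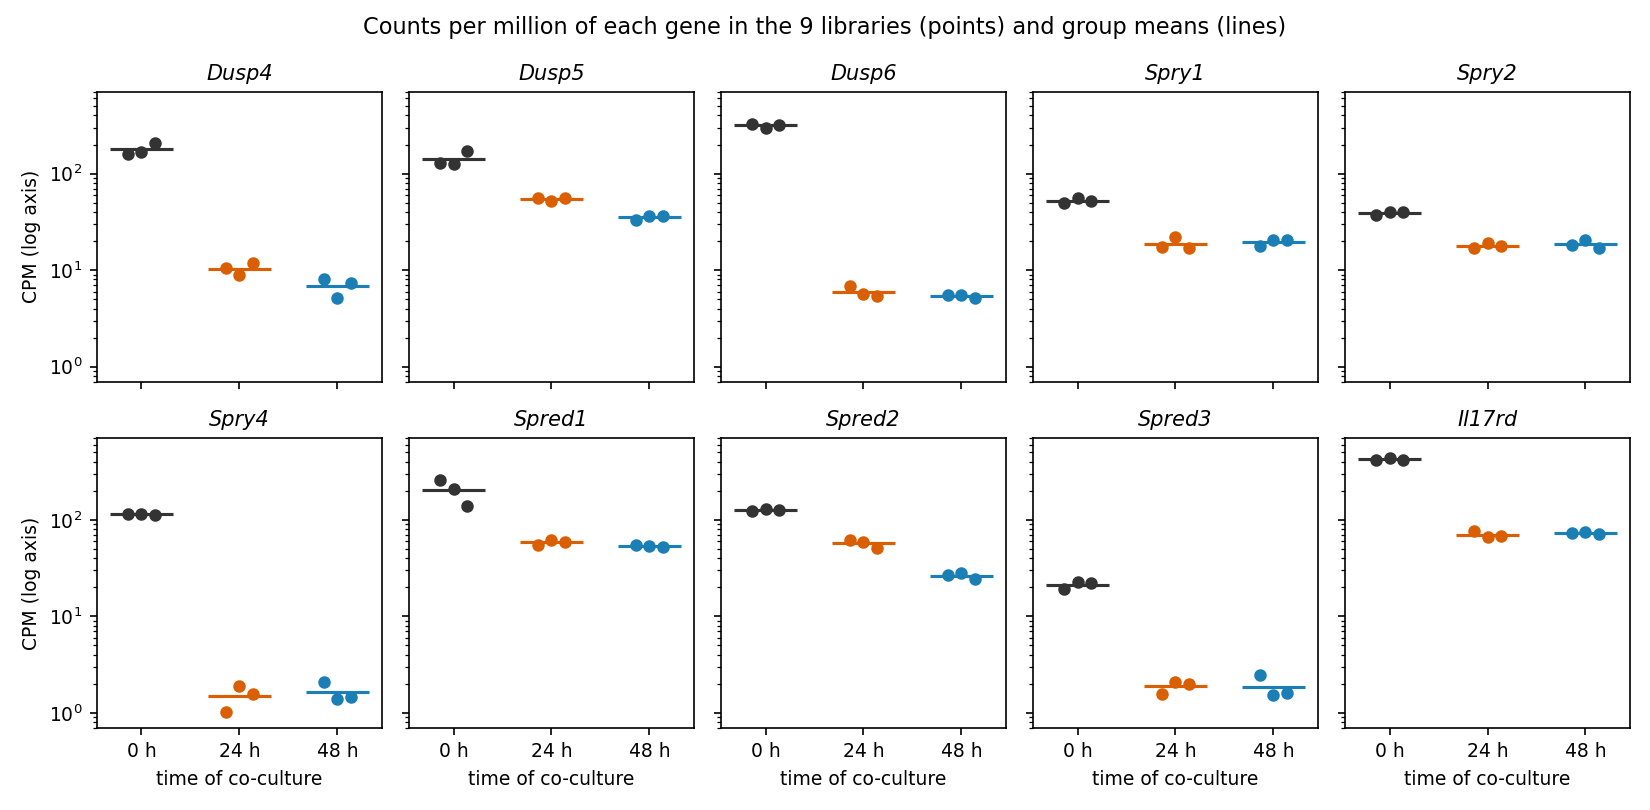
CPM of each of the 10 genes (vertical axis, logarithmic) in every library (points) at 0 h, 24 h and 48 h, with lines at the means of 3 libraries. In every panel all points at 24 h and 48 h lie below all points at 0 h. The share of all genes with such separation is not given here. The drop is deepest for Spry4, from a mean of 115 CPM at 0 h to 1.51 at 24 h, and for Dusp6, from 315 to 5.92.

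Among the phosphatases, which remove the activating phosphates from MAP kinases, Dusp6 is the cytoplasmic enzyme specific for ERK. Dusp6 (ENSMUSG00000019960, GRCm38 chromosome 10, 99263231 to 99267489) was measured at 328, 296 and 322 CPM in the 0 h libraries, at 6.77, 5.61 and 5.37 CPM at 24 h and at 5.5, 5.51 and 5.16 CPM at 48 h. The 0 h libraries lay far above all others, and the 24 h and 48 h libraries overlapped. Dusp6 was 52.7-fold lower at 24 h (log2 fold change -5.72, SE 0.15, adjusted p = 2.68e-06) and 58.4-fold lower at 48 h (-5.87, SE 0.12, adjusted p = 1.92e-06). From 24 h to 48 h its log2 fold change was -0.15 (SE 0.15, adjusted p = 0.534). It ranked 15th from the most lowered of the 17592 genes tested at 24 h.

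Dusp4, a nuclear phosphatase that acts on ERK and on the stress-activated kinases, gave 159, 168 and 206 CPM at 0 h, 10.5, 8.82 and 11.8 CPM at 24 h, and 8.01, 5.12 and 7.34 CPM at 48 h (ENSMUSG00000031530, chromosome 8, 34807297 to 34819894). None of the 3 groups overlapped, although the highest 48 h library came close to the lowest at 24 h. The gene was 17-fold lower at 24 h (log2 fold change -4.09, SE 0.17, adjusted p = 1.57e-05) and 26.1-fold lower at 48 h (-4.71, SE 0.21, adjusted p = 1.39e-05). The further step from 24 h to 48 h was small, with a log2 fold change of -0.62 (SE 0.19, adjusted p = 0.0425). That last call was fragile. It was lost with all 9 libraries in a single fit, with offsets for GC content and length, and in 5 of the 6 fits that left out 1 library, which gave log2 fold changes from -0.73 to -0.44. Over all the alternatives its adjusted p ran from 0.00161 to 0.138.

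Dusp5, a nuclear phosphatase specific for ERK, fell the least of the phosphatases and in steps. It stood at 130, 127 and 172 CPM at 0 h, at 55.8, 51.4 and 56.3 CPM at 24 h, and at 32.7, 36.3 and 36.3 CPM at 48 h (ENSMUSG00000034765, chromosome 19, 53529109 to 53542431). Each later time lay wholly below the earlier one. The log2 fold changes were -1.38 at 24 h (SE 0.15, adjusted p = 0.000565) and -2.03 at 48 h (SE 0.15, adjusted p = 9.83e-05), and -0.65 from 24 h to 48 h (SE 0.08, adjusted p = 0.000816). An antisense gene, AC137853.2, shares 547 exon bases with Dusp5, and since no strand setting is given for the counting, reads from its strand cannot be told apart from those of Dusp5.

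Promoters of the ERK phosphatases Dusp5 and Dusp6 are shown as descriptions, and the pair was picked after its levels were seen. Transcription factors of the ETS family and SRF are known to carry ERK signals to such genes. Whether these motifs bear on the changes was not tested. The RefSeq promoter table of GRCm38.p6 covers 250 bases before and 50 after the start of each of 32851 entries, and held 8 of the 10 genes: all but Dusp4 and Spry4. The stretches printed here lie upstream of the gene start, on the + strand, and capitals mark matches to the motifs searched on both strands.
Dusp5, chr19:53528895-53529108: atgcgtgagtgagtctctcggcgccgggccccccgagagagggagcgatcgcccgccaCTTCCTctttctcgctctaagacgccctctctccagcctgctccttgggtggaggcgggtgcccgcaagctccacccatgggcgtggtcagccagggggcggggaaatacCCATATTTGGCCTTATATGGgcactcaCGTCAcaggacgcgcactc
Dusp6, chr10:99262981-99263230: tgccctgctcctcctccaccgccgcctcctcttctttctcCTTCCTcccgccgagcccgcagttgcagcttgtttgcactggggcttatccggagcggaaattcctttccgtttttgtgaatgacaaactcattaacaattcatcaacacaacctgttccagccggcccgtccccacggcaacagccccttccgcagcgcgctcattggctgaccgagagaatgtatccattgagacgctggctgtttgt
The first capitals in each are the ETS motif AGGAAG on the opposite strand. Shorter GGAA stretches were not searched, so capitals need not mark every ETS-like sequence. In Dusp5 they are followed by a pair of adjoining SRF-type CArG boxes, starting 82 and 72 bases before the RefSeq start, and by the cyclic AMP element core TGACG on the opposite strand. The matches do not overlap one another.

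Most of these motifs are common in promoters, so the letters describe the windows and mark no proven site. AGGAAG was found in 35.4% of all promoters in the table and in 3 of the 8 matched genes, namely Dusp5, Dusp6 and Spred2. TGACG was found in 20.8% of all promoters and in 2 of the 8, Dusp5 and Spred2. The CArG box was rarer, in 1.63% of all promoters, and Dusp5 was the only 1 of the 8 with a match. The ETS motif CCGGAAGT (3.89% of all promoters), the AP-1 motif TGANTCA (7.81%), the full cyclic AMP element TGACGTCA (1.79%, every match of which also holds TGACG) and the E-box CACGTG (7.15%) were in 0 of the 8. The GC content of the 8 windows ran from 55% in Spred3 to 72.3% in Spred1, where the median of all promoters was 52.7%.

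The Sprouty genes encode adaptors that are phosphorylated after receptor activation and restrain the signal upstream of or at the level of RAF. Spry4 changed most of all 10 inhibitors. It was at 115, 116 and 113 CPM at 0 h, at 1.03, 1.92 and 1.56 CPM at 24 h, and at 2.09, 1.39 and 1.47 CPM at 48 h (ENSMUSG00000024427, chromosome 18, 38586247 to 38601415, minus strand). In reads, that is 1844 to 2346 per library at 0 h, 21 to 36 at 24 h and 29 to 40 at 48 h, so the low values rest on few counts, all above the floor of 3. Spry4 was 75.6-fold lower at 24 h (log2 fold change -6.24, SE 0.22, adjusted p = 8.44e-06) and 69.6-fold lower at 48 h (-6.12, SE 0.18, adjusted p = 5.07e-06), the 10th most lowered gene in both comparisons. Between 24 h and 48 h the groups overlapped, with a log2 fold change of 0.12 (SE 0.31, adjusted p = 0.818).

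The other Sprouty genes fell less, and neither was called between 24 h and 48 h. Spry1 (ENSMUSG00000037211, chromosome 3, 37639947 to 37644598), best known for limiting GDNF and Ret signalling in the kidney, gave 49.5, 55.4 and 52.2 CPM at 0 h, 17.2, 21.9 and 16.8 CPM at 24 h, and 17.9, 20.6 and 20.5 CPM at 48 h. Only the 0 h libraries stood apart. The log2 fold changes against 0 h were -1.48 (24 h, SE 0.14, adjusted p = 0.000317) and -1.41 (48 h, SE 0.12, adjusted p = 0.000148), and 0.07 between the later times (SE 0.12, adjusted p = 0.715). Gm42922, on the opposite strand, shares 710 exon bases with Spry1 and had 0 to 5 counts per library.

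Spry2 (ENSMUSG00000022114, chromosome 14, 105891947 to 105896819, minus strand), the broadly expressed family member that also binds the ubiquitin ligase Cbl, gave 36.9, 39.6 and 40.4 CPM at 0 h, 17.1, 18.9 and 17.7 CPM at 24 h, and 18.4, 20.5 and 17.1 CPM at 48 h. The later groups overlapped and both lay below 0 h. Its fall was the smallest of the 10, with log2 fold changes of -1.11 at 24 h (SE 0.11, adjusted p = 0.000401), -1.06 at 48 h (SE 0.12, adjusted p = 0.000625) and 0.05 between them (SE 0.1, adjusted p = 0.74). Set per gene length as FPKM, Spry4 was 1.23 to 1.37 times Spry2 in the 0 h libraries, 0.0265 to 0.0446 times at 24 h and 0.0297 to 0.05 times at 48 h. The family thus changed its leading member, from Spry4 at 0 h to Spry2 at 24 h and 48 h.

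The Spred genes encode membrane-bound relatives of Sprouty that recruit neurofibromin, a RAS inactivator. Spred2 was the gene with the most gradual decline. It gave 124, 128 and 126 CPM at 0 h, 61.8, 59.4 and 50.8 CPM at 24 h, and 26.5, 28.4 and 24.5 CPM at 48 h (ENSMUSG00000045671, chromosome 11, 19924375 to 20024026). No groups overlapped, and the drop was of like size on each day: the log2 fold change was -1.12 from 0 h to 24 h (SE 0.12, adjusted p = 0.000524) and -1.12 from 24 h to 48 h (SE 0.1, adjusted p = 0.000187), with -2.25 over the whole interval (SE 0.11, adjusted p = 1.71e-05). Of 75-base windows along its exons 6.29% matched other genes, mostly the pseudogene Gm14612, which had 0 to 1 counts. The stretch before its gene start is shown for the AGGAAG in capitals, here on the gene's own strand and 93 bases before the RefSeq start. Another AGGAAG and the TGACG of Spred2, both on the opposite strand, lie 32 and 51 bases before the RefSeq start. Both fall past the end of the printed stretch.
Spred2, chr11:19924192-19924374: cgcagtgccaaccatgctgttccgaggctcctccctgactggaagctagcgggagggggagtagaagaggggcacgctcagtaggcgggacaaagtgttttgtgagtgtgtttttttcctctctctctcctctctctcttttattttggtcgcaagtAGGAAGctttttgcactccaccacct

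Spred1, the gene mutated in Legius syndrome, varied more than any other inhibitor at 0 h. Its 0 h libraries gave 257, 208 and 140 CPM, those of 24 h 54.3, 61.7 and 59.5 CPM and those of 48 h 55, 53.2 and 52.3 CPM (ENSMUSG00000027351, chromosome 2, 117121374 to 117182279). Even the lowest 0 h library, replicate 3, lay well above all later ones, and 24 h and 48 h overlapped. The log2 fold changes were -1.77 at 24 h (SE 0.22, adjusted p = 0.00112) and -1.92 at 48 h (SE 0.22, adjusted p = 0.000645). In the same replicate 3, Dusp4 and Dusp5 were at their highest. From 24 h to 48 h the log2 fold change of Spred1 was -0.14 (SE 0.07, adjusted p = 0.201), and with GC and length offsets, an alternative chosen after seeing the data, it was -0.35 with an adjusted p of 0.0196.

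Spred3, described mainly in brain, was the lowest of the 10 per gene length at 0 h. It gave 19.3, 22.5 and 22.1 CPM at 0 h, 1.57, 2.08 and 2 CPM at 24 h, and 2.46, 1.52 and 1.62 CPM at 48 h (ENSMUSG00000037239, chromosome 7, 29158829 to 29170411, minus strand). The later groups overlapped, far below 0 h. It was 11.2-fold lower at 24 h (log2 fold change -3.48, SE 0.17, adjusted p = 2.58e-05) and 11.4-fold lower at 48 h (-3.52, SE 0.22, adjusted p = 4.43e-05), with -0.03 between the later times (SE 0.27, adjusted p = 0.95). Ggn, on the opposite strand, shares 202 exon bases with it and had 2 to 18 counts per library. Per gene length, Spred1 was 0.759 to 1.41 times Spred2 at 0 h, 0.598 to 0.799 times at 24 h and 1.28 to 1.45 times at 48 h, so Spred2 led at 24 h and Spred1 at 48 h.

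Il17rd, a transmembrane protein that holds active ERK in the cytoplasm and dampens FGF signalling, came after the 3 phosphatases in level per gene length at 0 h. It gave 414, 441 and 414 CPM at 0 h, 76.4, 65.7 and 68.1 CPM at 24 h, and 73.8, 74.8 and 70.6 CPM at 48 h (ENSMUSG00000040717, chromosome 14, 27038941 to 27107286). The later groups overlapped and 0 h stood apart. It was 5.98-fold lower at 24 h (log2 fold change -2.58, SE 0.11, adjusted p = 1.57e-05) and 5.79-fold lower at 48 h (-2.53, SE 0.1, adjusted p = 8.48e-06). Between the later times its log2 fold change was 0.05 (SE 0.08, adjusted p = 0.679).

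**Figure D2:**
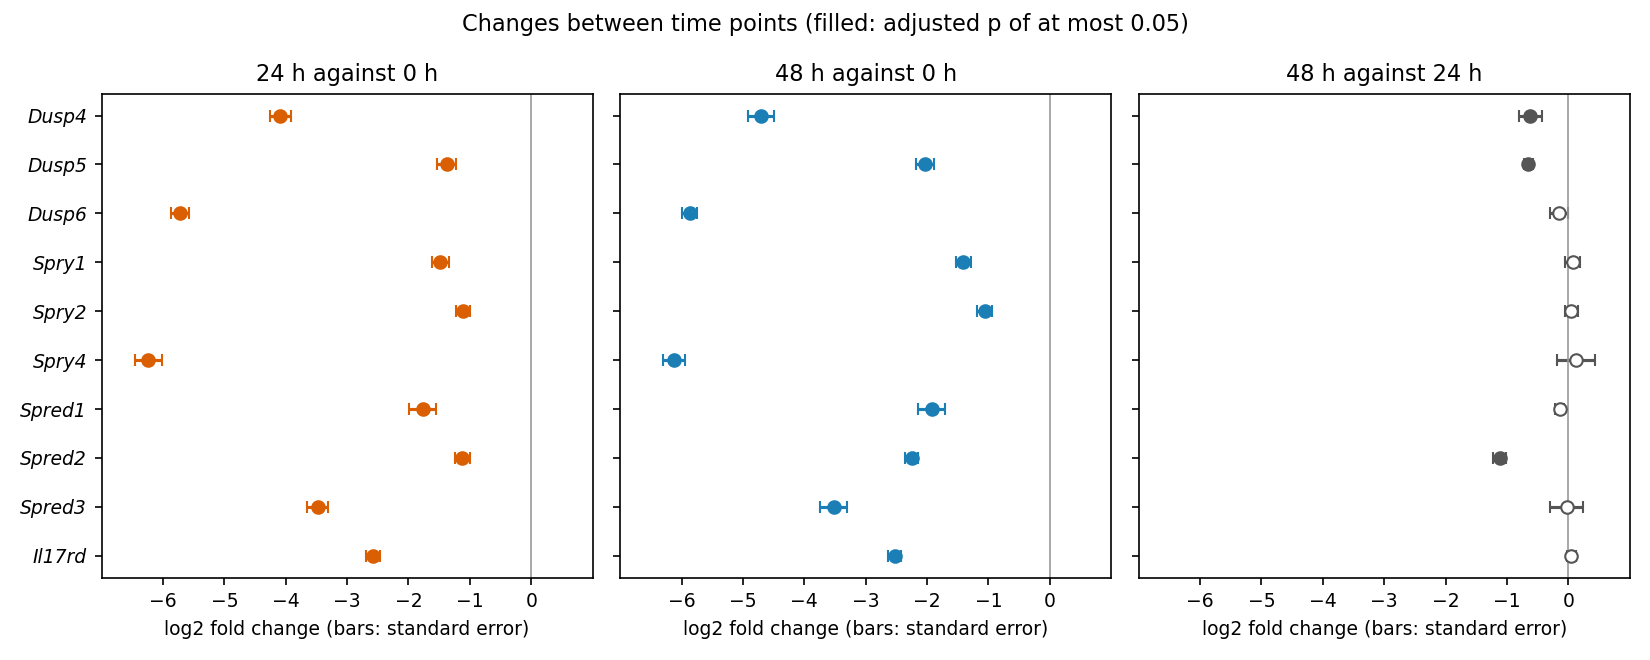
Log2 fold changes of the 10 genes (points) with standard errors (bars) at 24 h against 0 h, 48 h against 0 h and 48 h against 24 h, filled where the adjusted p was at most 0.05. At 24 h against 0 h they spread from -1.11 for Spry2 to -6.24 for Spry4, and at 48 h against 24 h only Dusp4, Dusp5 and Spred2 are filled.

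The 10 genes differed in how much of their decline was present by 24 h. Taking the difference in the log2 of mean CPM between 0 h and 48 h as the whole, 50.5% was present at 24 h for Spred2, 68.6% for Dusp5, 87.2% for Dusp4 and 93.2% for Spred1. For the other 6 genes the share ran from 97.7% in Dusp6 to 106% in Spry1 and Spry2, where values over 100% mean a level at 24 h slightly under that at 48 h. These shares are descriptions, and the 7 genes other than Dusp4, Dusp5 and Spred2 were not called between 24 h and 48 h. A p that misses the threshold there does not show equal levels: the standard error of the log2 fold change was 0.31 for Spry4 and 0.27 for Spred3, so modest changes in these rare transcripts were not detectable at this depth.

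Levels can be compared between genes only per length, as FPKM computed over the union of each gene's exons. Summed over the 10 genes the level was 383 ± 13.3 FPKM at 0 h, 70.7 ± 0.985 at 24 h and 55 ± 1.36 at 48 h (SD, n = 3 each). At 0 h the order was Dusp6 (mean 101 FPKM), Dusp4 (64.9), Dusp5 (57.8), Il17rd (38.5), Spred1 (29.7), Spred2 (27.3), Spry4 (24.1), Spry2 (18.7), Spry1 (18) and Spred3 (3.42). Neighbours whose libraries overlapped in that order were Dusp4 with Dusp5, Il17rd with Spred1, Spred1 with Spred2, and Spry2 with Spry1. Together the phosphatases led at 0 h, and Dusp6 with Spry4 made up 31.8 to 34% of the sum.

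After the shift the order was a different one. At 24 h Dusp5 led at 22 FPKM, clear of Spred2 at 12.4, and at 48 h Dusp5 led at 14.2, clear of Spry2 at 8.94. At 24 h the libraries of Spred1 (8.63) overlapped with those of Spry2 (8.57), and those of Spry1 (6.41) with those of Il17rd (6.38). Dusp6, first at 0 h, stood at 1.89 FPKM at 24 h and 1.72 at 48 h, and Spry4 at 0.317 and 0.347, overlapping with Spred3 at 0.303 and 0.3. Dusp6 with Spry4 then made up 2.93 to 3.33% of the sum at 24 h and 3.6 to 4.05% at 48 h. The FPKM ratio of Dusp6 to Dusp5 was 1.48 to 1.99 at 0 h, 0.0753 to 0.0958 at 24 h and 0.112 to 0.133 at 48 h, without overlap between 0 h and the later times. With the length of the longest transcript in place of the exon union, some ranks changed places, among them Spry1 above Spry2 at 0 h, and Il17rd above Spry1 and Spred3 above Spry4 at 24 h and 48 h, while Dusp6 at 0 h and Dusp5 at the later times stayed first.

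**Figure D3:**
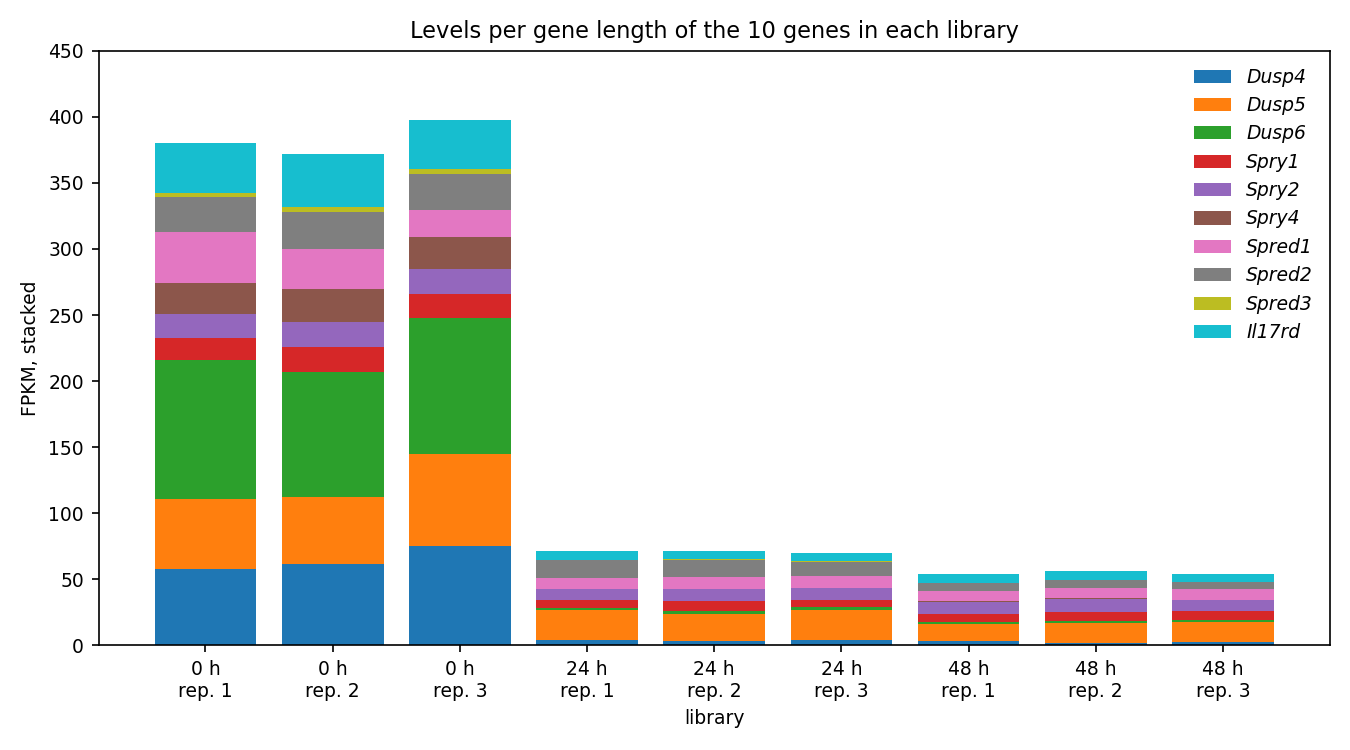
FPKM of the 10 genes stacked for each of the 9 libraries. The stacks sum to 372 to 398 at 0 h, 69.6 to 71.5 at 24 h and 54.2 to 56.6 at 48 h, with the Dusp6 and Dusp4 segments wide at 0 h and thin afterwards.

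Other genes of the pathway did not fall as a block. Of 7 tested genes among the other MAP kinase phosphatases and Spry3, 3 were lower and 2 higher at 24 h, with a median log2 fold change of -0.26. Of all genes tested, 14.2% were lower and 11.4% higher. Dusp7, the ERK-specific relative of Dusp6, went from 222 ± 26.8 CPM to 68.7 ± 0.642 (SD, n = 3 each; log2 fold change -1.68, SE 0.12, adjusted p = 0.000107), and Dusp1 and Dusp10 were lower by log2 fold changes of -0.74 and -0.65. Dusp8, a phosphatase of the stress-activated kinases, was higher by 1.69 (SE 0.23, adjusted p = 0.00163) and Dusp2 by 0.86, though Dusp2 lost its call in 2 and Dusp10 in 3 of the 6 fits without 1 library. Without 24 h replicate 2, 3 in place of 5 genes of the list were called. At 48 h against 0 h, 3 of the 7 were higher and 4 lower (median -0.63), against 13% and 18.5% of all genes tested.

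Restraints of other kinds, 22 genes that include RAS GTPase activators, Cbl ligases and Lrig receptors, had 3 lower, 1 higher and 18 not called at 24 h (median -0.07). With 14.2% of all genes tested lower and 11.4% higher, these counts are near or under the background. The largest falls were those of Lrig3, of a family of receptor regulators (log2 fold change -2.03, adjusted p = 4.87e-05), Sh3bp4 (-1.61, adjusted p = 0.00011) and the RAS inactivator Rasa3 (-1.57, adjusted p = 9.31e-05). Sulf1, which trims heparan sulphate, was higher by 0.53, a call lost in 4 of 6 fits without 1 library. At 48 h against 0 h the counts were 4 lower and 1 higher of 22 (median -0.2), against 18.5% and 13% of all genes. Those 5 calls became 11 without 0 h replicate 1 and 3 without 0 h replicate 2 or any of the 48 h libraries.

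In the RAS-ERK cascade itself, 6 of 26 genes were lower and 2 higher at 24 h, against 14.2% and 11.4% of all genes tested. The other 18 were not called, and the median was -0.08. These 8 calls became 3 without 24 h replicate 1, 4 without 0 h replicate 2, 24 h replicate 2 or 24 h replicate 3, and 4 with a replicate block, and the highest number over the alternatives was 12. Ksr2, a scaffold that brings RAF and MEK together, went from 22.8 ± 0.728 to 4.17 ± 1.3 CPM (SD, n = 3 each; log2 fold change -2.43, adjusted p = 0.00046), and Sos2 and Rps6ka1 had log2 fold changes of -1.28 and -0.59. Mras, a RAS relative, was higher by 1.93 (adjusted p = 0.0013) and Map2k2, which encodes a MEK kinase, by 0.55. The calls of Sos2 and Map2k2 were lost in 2 and 4 of the 6 fits without 1 library. Scaled by library size alone, the medians of this list and of the restraints changed sign to 0.04 and 0.05, and 4 in place of 6 cascade genes were lower. At 48 h against 0 h the cascade had 6 lower and 3 higher of 26 (median -0.13), against 18.5% and 13% of all genes tested. Those 9 calls became 4 without 48 h replicate 1, 5 without 0 h replicate 2, 48 h replicate 2 or 48 h replicate 3, and 5 with the replicate block.

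Receptors moved in both directions, with 8 of 17 higher and 6 lower at 24 h and a median of 0.41, where 11.4% of all genes tested were higher and 14.2% lower. Ret, the GDNF receptor kinase, went from 643 ± 65.5 to 47 ± 0.851 CPM (SD, n = 3 each; log2 fold change -3.76, adjusted p = 7.42e-06), and its partner Gfra1 from 230 ± 10.6 to 36.4 ± 2.2 CPM (-2.65). Kl, an FGF co-receptor, had at most 36 counts in a 0 h library and at most 1 at 24 h, so its fold is not given. Kit, the stem cell factor receptor, rose from 8.47 ± 1.26 to 567 ± 34.5 CPM (log2 fold change 6.08), followed by Pdgfrb (2.09) and Met (1.64). Pdgfrb is also a gene of mesenchymal cells, and of the 10 stromal and fibroblast markers 6 were higher and 2 lower at 24 h. Their part in its change was not tested. At 48 h against 0 h, 6 of 17 receptors were higher and 7 lower (median 0.23), against 13% and 18.5% of all genes tested.

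Of the ERK-responsive transcripts, 13 of 20 tested were lower and 0 higher at 24 h, with a median of -0.77. Compared with 0 h, 14 of 20 were lower at 48 h (median -1.34), where 18.5% of all genes tested were lower. Etv5, an ETS factor needed for stem cell maintenance, went from 523 ± 36.9 to 11.3 ± 1.01 CPM (SD, n = 3 each; log2 fold change -5.52), its relative Etv4 from 242 ± 45.2 to 16.3 ± 0.669 CPM (-3.88, adjusted p = 1.57e-05), and the early growth response gene Egr3 from 31.6 ± 7.85 to 0.577 ± 0.196 CPM (-5.75, SE 0.3, adjusted p = 3.01e-05). All 10 inhibitors and 13 of these 20 transcripts were thus lower at 24 h, where 14.2% of all genes tested were. From 24 h to 48 h, 12.7% of all genes tested were lower and 8.61% higher. Of the 20 ERK-responsive transcripts, 9 were lower and 1 higher (median -0.31). Over that interval the other phosphatases with Spry3 had 2 higher and 2 lower of 7, the restraints 1 and 6 of 22, the cascade 3 and 2 of 26, and the receptors 1 and 5 of 16 tested. With all 9 libraries in 1 fit these calls came to 2, 3, 0 and 3 in the same order of lists. Without 48 h replicate 1 the calls were 6 for the ERK-responsive transcripts, 4 for the restraints and 3 for the cascade. Without 24 h replicate 1 the restraints had 4 and the cascade 3, and the cascade had 3 without 24 h replicate 2 and 8 without 48 h replicate 2.

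**Figure D4:**
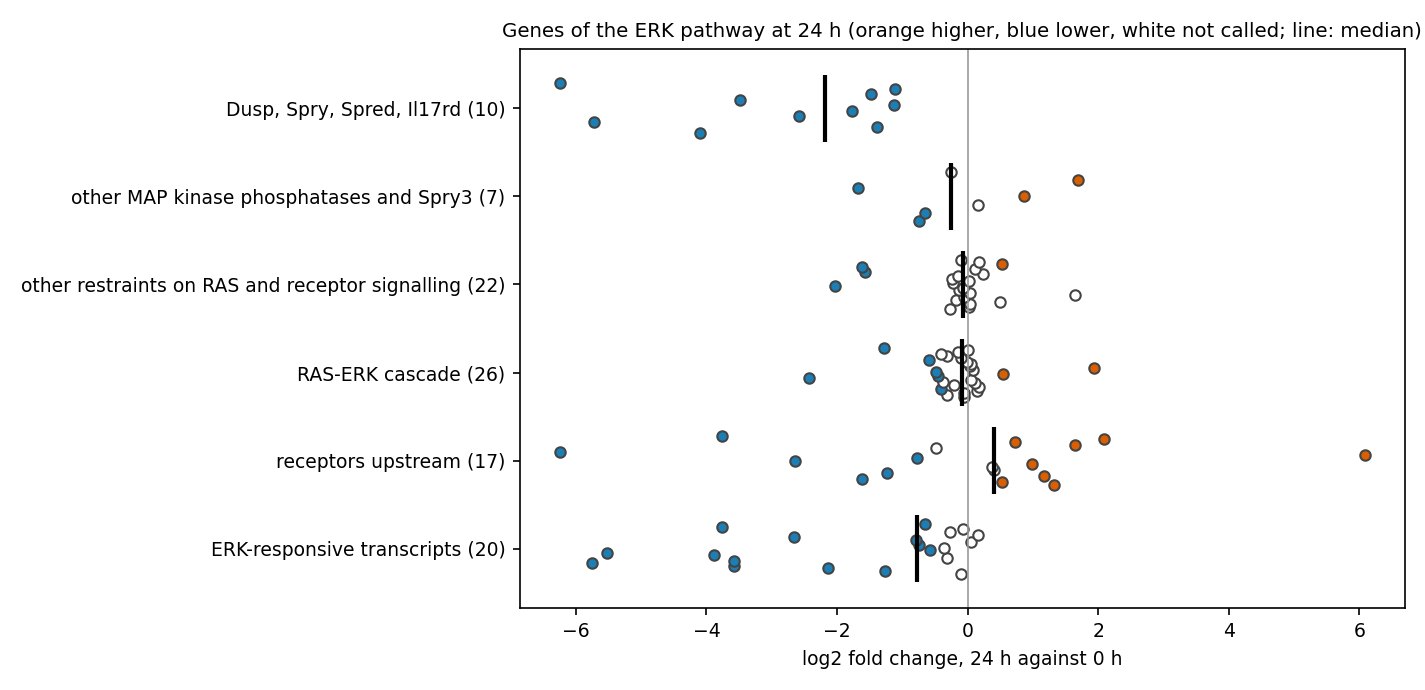
Log2 fold changes at 24 h against 0 h of the genes tested in each list (points; orange higher, blue lower, white not called; black line, median). The inhibitors all lie left of 0 with a median of -2.18, the restraints and cascade have medians of -0.07 and -0.08 (0.05 and 0.04 scaled by library size alone), and the receptors reach from Kl and Ret on the left to Kit at 6.08.

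For the 3 most changed inhibitors, the genes with the most similar pattern were found by Pearson's r of log2 CPM over the 9 libraries among 18261 genes. The points share their time groups, and any gene that is high at 0 h and low afterwards scores near 1, so the values are descriptions. Among the nearest genes to Spry4 were Spred3 (r = 0.9974) and Sqle (0.9959), the last an enzyme of cholesterol synthesis at a mean of 199, 70.6 and 73 CPM. Those nearest to Dusp6 were Cyp51 (0.9984), another sterol synthesis enzyme at 254, 61.9 and 59.4 CPM, then Il17rd (0.9984) and Drd5 (0.998), which had a mean of 1.41 CPM at 0 h and 0 at both later times. Dusp4 was nearest to Klhl36 (0.9982), Pygl (0.9966) and Cxcr4 (0.9962), a chemokine receptor at 41.3, 6.27 and 5.11 CPM.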

How the data were processed

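The authors deposited counts, whole numbers of reads per gene for each of the 9 libraries, with no normalization. The submitters' processing notes name fastp, HISAT2, featureCounts and GRCm38; their versions, the strand setting, the handling of reads that match several genes and the annotation release are not given in the sources used here. Symbols, positions and exons came from GENCODE M21, which held 45143 of the 46078 identifiers, and 0 columns were left over.

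Each comparison used the 6 libraries of its groups, filterByExpr and TMM, and was fitted with edgeR 4.0.16 (glmQLFit and glmQLFTest, two-sided, R 4.3.3). P-values were adjusted by Benjamini-Hochberg over every gene tested and called at 0.05, and standard errors came from those fits. CPM were TMM-normalized over the 9 libraries, log2 CPM for pattern likeness used a prior count of 2, and FPKM were computed here from counts and exon unions. The floor was set at 3 counts per library. Exons were compared with other genes in 75-base windows at 97% identity with BLAST 2.17.0. The test was checked on simulated counts with the same dispersion for every gene and group. That check does not cover the larger spread of the 0 h libraries.

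The 10 genes and all lists, written from general knowledge, were chosen with earlier results of these data known. Of each pathway list the text names up to 3 rises and 3 falls called at 24 h against 0 h, largest first, of cell markers the most abundant at 48 h, and for the 3 most changed inhibitors the 3 nearest genes, 1 of which is not reported here. Alternatives were DESeq2 1.42.0, DESeq2 size factors, library size alone, a minimum of 10 counts, no filter, all 9 libraries in 1 fit, a minimum fold change of 1.3, a replicate block and each library left out. Offsets for GC content and length were chosen after seeing the data.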

Additional observations from a re-analysis of the deposited data

How the results depend on the processing

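All 10 inhibitor genes were lower at 24 h and at 48 h than at 0 h under every alternative run, and 2 or 3 of the 10 were lower at 48 h against 24 h. Only uncalled changes from 24 h to 48 h changed sign: Spry2 ranged from -0.02 to 0.11 and Spry4 from -0.09 to 0.33 (log2) with 1 library left out, and Spred3 from -0.25 to 0.1, with 0.13 under GC and length offsets. The cause was not tested.

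No common effect of same-numbered libraries was seen. Their deviations from group means correlated between -0.26 and 0.02, -0.28 and 0.2, and -0.06 and 0.1 in the 3 comparisons. With 3 libraries per time, these values cannot show whether the cultures were paired. With the replicate block, 10, 10 and 3 of the inhibitors were called, and 3007, 4013 and 2497 of all genes. Without it 4494, 5602 and 3732 genes were called, and the range over the other alternatives was 2607 to 6341, 3471 to 7609 and 1043 to 4543, the last low from all 9 libraries in 1 fit. Scaling by library size alone shifted the all-gene median at 24 h from 0.01 to 0.12 and at 48 h from 0.02 to 0.13, and the share of calls that were higher from 44.5% to 57.1% and from 41.2% to 52.8%. Depth limits Spry4 and Spred3 most, with 21 to 47 counts per library after 0 h.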
